A study of Mus musculus with 6 samples.

Results

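Epithelial junction genes encode the proteins that join neighbouring epithelial cells of the gut. The set described here had 33 listed genes, chosen by symbol, and the array annotation gave probe sets (groups of short probes for one transcript) to 31 of them, of 12393 genes on the array. Cgn and Cldn12 were not analysed here. Of the 31 genes, 29 passed the filter on low signal, which kept probe sets whose mean log2(signal + 4) over the 6 arrays lay above that of a signal of 37.1. Each gene was represented by the probe set with its highest mean on that log2 scale.

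RNA came from the ileum, the distal small intestine, of wild-type male mice (mixed strain C57BL/6:129Sv, age 8 to 10 months). The 6 single-colour Affymetrix arrays formed 3 groups of 2. BDL_GW4064 mice had bile duct ligation, which ties the common bile duct so that bile no longer reaches the gut, and received GW4064 at 100 mg/kg/day by gavage. GW4064 is a synthetic agonist of FXR, the bile acid receptor. BDL_Vehicle mice had the ligation and vehicle, and Sham_Vehicle mice had the same incision with the duct mobilised but not tied, and vehicle. All groups were gavaged daily, starting 2 days ahead of surgery and going on for 5 days afterwards, so no group was free of surgery and gavage. The labels leave unsaid if the 2 arrays per group were hybridised with RNA of different animals or of pools. The p-values therefore reflect only how far these samples differed, and that spread may be technical.

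Tight junctions seal the space between epithelial cells near the gut lumen. Claudins form their strands and set which ions pass, occludin and tricellulin sit in the same strands, and scaffold proteins such as the ZO proteins tie them to actin. Below them, adherens junctions (E-cadherin with its catenins) and desmosomes (desmosomal cadherins linked by plakoglobin, plakophilins and desmoplakin to keratin filaments) carry mechanical load, and gap junctions pass small molecules between cells. In the ileum these structures keep luminal bacteria out of the wall, and FXR is known for effects on that barrier.

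Fgf15, the FXR target that signals from ileum to liver, followed the labels. It read 972.1 and 809.6 in BDL_GW4064, 5.5 and 3.4 in BDL_Vehicle, and 316.2 and 479.6 in Sham_Vehicle. All 12 intestinal epithelium markers were above 37.1 on at least 1 array. A control probe set for the 5' end of 18S rRNA parted the arrays. It was low, at 8.6 to 13.3, on the BDL_GW4064 pair and on BDL_Vehicle replicate 2. It was high, at 67.3 to 88.7, on BDL_Vehicle replicate 1 and on the Sham_Vehicle pair. For actin, the ratio of 3' signal over 5' signal reached 1.73 on Sham_Vehicle replicate 2 and was 1.09 to 1.22 elsewhere. BDL_GW4064 replicate 2 held far more smooth muscle signal than the rest. Summed over 9 smooth muscle markers, the signal was 1984 and 12837 in BDL_GW4064, 1633 and 2018 in BDL_Vehicle, and 1981 and 2170 in Sham_Vehicle. In bulk tissue, fewer cells of a type and less RNA per cell cannot be told apart.

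Log2 differences of the junction genes were mostly small, but 2 arrays per group could not show that signals were equal. The differences were within 0.5 in size for 29 of 29 genes in BDL_Vehicle against Sham_Vehicle. That held for 26 genes in BDL_GW4064 against BDL_Vehicle and for 22 in BDL_GW4064 against Sham_Vehicle. Means were lower in BDL_GW4064 than in BDL_Vehicle for 24 of 29 genes, against 49.6% of all genes tested. Without overlap between the arrays of these 2 groups, 15 genes were lower and 0 higher, against 16.7% and 19.1% of all genes tested. Cldn23, Pof1b and Tjap1, all of the tight junction, had signals 1.56 to 2.01 times lower in BDL_GW4064 than in BDL_Vehicle, with both BDL_GW4064 arrays below every other array. None of the 29 genes passed the threshold of an adjusted p under 0.05 in any of the 3 comparisons.

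Cldn23, a claudin described in differentiated intestinal epithelial cells, read 204.7 and 206.2 in BDL_GW4064, 445.0 and 389.6 in BDL_Vehicle, and 436.9 and 416.8 in Sham_Vehicle. The BDL_GW4064 arrays were almost equal and lay far below the other 4, which overlapped between their groups. The log2 difference between BDL_GW4064 and BDL_Vehicle was -1.01 ± 0.14 (SE; limma adjusted p = 0.0998).

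Pof1b, an actin-binding protein found at epithelial tight junctions, read 277.0 and 232.1 in BDL_GW4064, 460.0 and 503.6 in BDL_Vehicle, and 539.1 and 470.9 in Sham_Vehicle. Both BDL_GW4064 arrays were again the lowest. The log2 difference from BDL_Vehicle was -0.91 ± 0.16 (SE; limma adjusted p = 0.18).

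Tjap1, which encodes a tight junction associated protein also found at the Golgi, read 193.2 and 173.0 in BDL_GW4064, 286.7 and 288.1 in BDL_Vehicle, and 296.9 and 300.3 in Sham_Vehicle. The vehicle arrays spanned a narrow range and the BDL_GW4064 arrays lay below it. The log2 difference from BDL_Vehicle was -0.64 ± 0.15 (SE; limma adjusted p = 0.303).

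**Figure D1:**
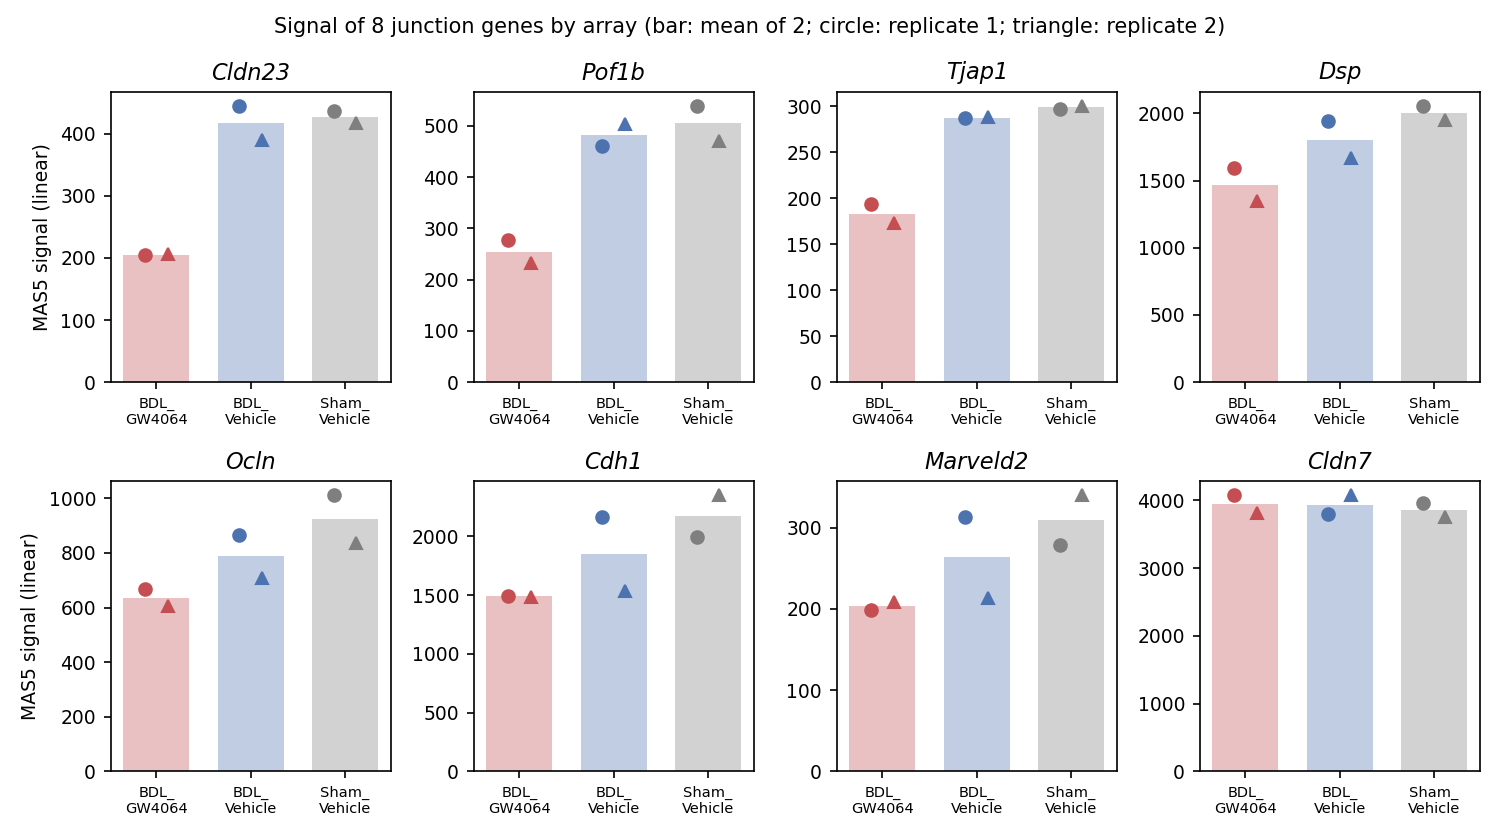
MAS5 signal on a linear scale starting at 0 for 8 junction genes in BDL_GW4064, BDL_Vehicle and Sham_Vehicle, with a bar for the mean of 2 arrays, a circle for replicate 1 and a triangle for replicate 2. Cldn23, Pof1b and Tjap1 are low on both BDL_GW4064 arrays, Cdh1 and Marveld2 are also low on BDL_Vehicle replicate 2, and Cldn7 stays between 3762 and 4079.

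Promoter sequences are shown for Pof1b and Tjap1 because these genes had low values together. The RefSeq table of promoters held 23 of the 33 listed genes and none for Cldn23. Each sequence covers 250 bases before to 50 bases after the annotated start on the gene's strand, from build GRCm38.p6. Capitals mark matches to the GC box GGGCGG, read here on the opposite strand; this motif was added to the search after the sequences had been seen.
Pof1b, chrX:112698602-112698901, minus strand: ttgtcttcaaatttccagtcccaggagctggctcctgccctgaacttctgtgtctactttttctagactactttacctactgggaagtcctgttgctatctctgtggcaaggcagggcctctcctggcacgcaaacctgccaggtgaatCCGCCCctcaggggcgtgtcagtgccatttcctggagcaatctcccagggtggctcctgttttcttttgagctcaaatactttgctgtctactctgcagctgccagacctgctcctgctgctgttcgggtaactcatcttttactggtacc
Tjap1, chr17:46282977-46283276, minus strand: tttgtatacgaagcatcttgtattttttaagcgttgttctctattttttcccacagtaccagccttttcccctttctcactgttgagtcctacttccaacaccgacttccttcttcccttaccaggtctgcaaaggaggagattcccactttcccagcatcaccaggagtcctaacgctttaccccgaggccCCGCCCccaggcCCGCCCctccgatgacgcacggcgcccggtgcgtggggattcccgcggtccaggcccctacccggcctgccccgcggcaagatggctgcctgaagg

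The Pof1b window held 1 GC box and the Tjap1 window 2. Of all 32851 promoters of this length, 35.7% held a GC box on either strand. Counted by gene, 38.2% of 27025 genes had one in any of their promoters, and 20 of the 23 listed genes in the table did. The FXR inverted repeat (a pair of half-sites facing each other across 1 base), the half-site AGGTCA itself, the CDX motif TTTATNG and the grainyhead-like motif AACCNGTT, each searched on both strands, were not in either window. The half-site is part of the inverted repeat, so their matches overlap. The shares of all promoters with a match were 0.00913%, 16.3%, 10.9% and 2.09% in the order named. Counted by gene, the shares were 0.0111%, 18.1%, 12.5% and 2.35%. Among the 23 listed genes with a promoter in the table, the half-site was found in 8 (Ocln, Cldn4, Cldn7, Cldn15, Tjp3, Ctnnd1, Gjb1 and Gjb2), the CDX motif in Epcam and Gjb1, and the grainyhead-like motif in Cgn.

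The comparison of BDL_GW4064 with BDL_Vehicle asks what the FXR agonist did in mice without bile in the gut. Of 13575 probe sets tested by limma, 0.0516% passed the threshold, and 0 of 29 junction genes did. At an unadjusted p under 0.05 there were 3 junction genes by the probe sets that stood for them, Cldn23, Pof1b and Tjap1, all lower. Of 7919 genes tested, 2.41% were lower at that p. The other probe sets at that p, Dsc2 1426911_at and Dsg2 1439476_at, were also lower. Lower means were found for 24 of 29 junction genes, against 49.6% of all genes. The arrays did not overlap between the groups for 15 junction genes with lower values, against 16.7% of all genes, and for 0 with higher values, against 19.1%. The median log2 difference was -0.18 over the junction genes and 0.00 over all genes tested. By class, it was -0.30 for tight junction membrane proteins, -0.17 for claudins, -0.17 for plaque and polarity genes, -0.06 for adherens genes, -0.21 for desmosome genes and -0.11 for gap junction genes.

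The counts without overlap changed with the array left out. BDL_GW4064 replicate 2 was the array with the smooth muscle signal. Without BDL_GW4064 replicate 2, the other BDL_GW4064 array lay below both BDL_Vehicle arrays for 18 junction genes (35.1% of all genes) and above both for 8 (34.3% of all genes). Without BDL_GW4064 replicate 1, the counts were 24 lower (30.0% of all genes) and 0 higher (34.8%). They were 18 lower (30.9% of all genes) and 0 higher (33.5%) without BDL_Vehicle replicate 1. Without BDL_Vehicle replicate 2 they were 18 lower (35.8% of all genes) and 2 higher (36.9%). The junction genes' median deviation from the mean of all arrays was -0.07 and -0.16 (log2) in BDL_GW4064, 0.11 and 0.01 in BDL_Vehicle, and 0.05 and 0.05 in Sham_Vehicle. The same median over 12 intestinal epithelium markers was 0.05 and -0.08 in BDL_GW4064, -0.02 and 0.03 in BDL_Vehicle, and 0.04 and -0.08 in Sham_Vehicle. The part of smooth muscle in the junction values was not tested.

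**Figure D2:**
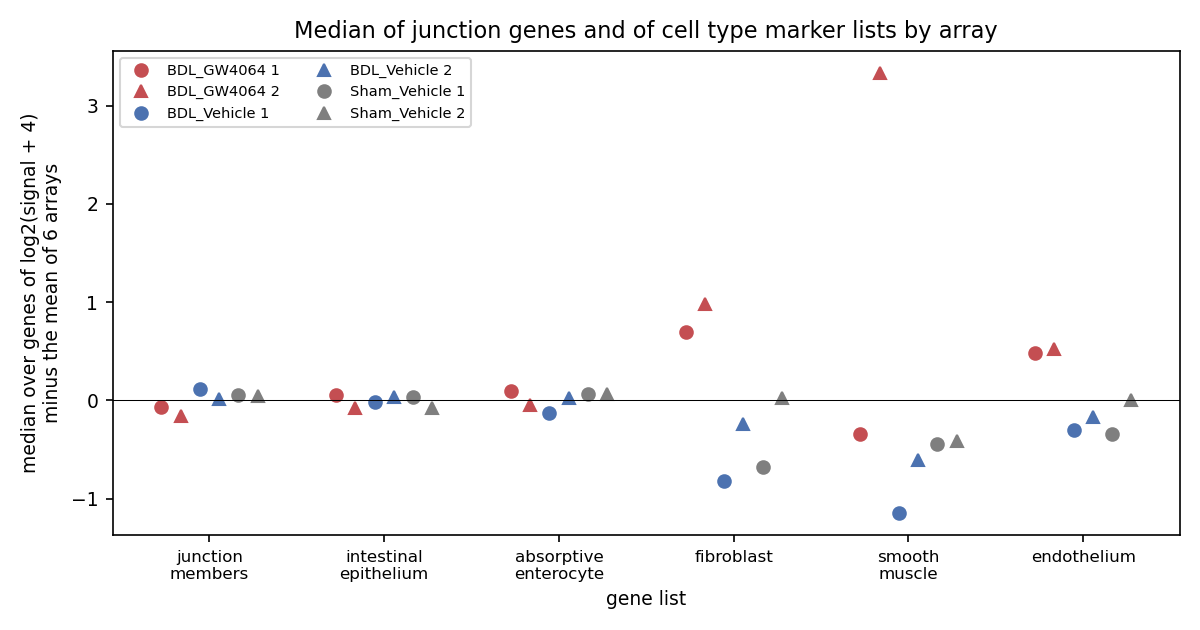
Median over the genes of each list of log2(signal + 4) minus the mean of 6 arrays (y axis), for the junction genes and for marker lists of 5 cell types (x axis), with 1 point per array, circles for replicate 1 and triangles for replicate 2. Junction and epithelial medians lie within 0.16 of 0, while smooth muscle reaches 3.33 in BDL_GW4064 replicate 2 and -0.35 in BDL_GW4064 replicate 1.

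Medians of fibroblast, endothelial and macrophage markers were higher on both BDL_GW4064 arrays than on the other 4. The fibroblast median over 10 markers was 0.70 and 0.98 in BDL_GW4064, -0.82 and -0.24 in BDL_Vehicle, and -0.68 and 0.02 in Sham_Vehicle. The endothelial median over 9 markers was 0.49 and 0.52 in BDL_GW4064, -0.30 and -0.17 in BDL_Vehicle, and -0.34 and 0.01 in Sham_Vehicle. The macrophage median over 6 markers was 0.50 and 0.34 in BDL_GW4064, -0.07 and -0.26 in BDL_Vehicle, and -0.17 and -0.36 in Sham_Vehicle. These 3 lists held 0 markers that passed the threshold in the comparison of BDL_GW4064 with BDL_Vehicle, and their part in the junction values was not tested.

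All 3 tight junction membrane proteins had their lowest mean in BDL_GW4064, with a small difference for F11r. Ocln, which encodes occludin, read 667.3 and 605.0 in BDL_GW4064, 865.7 and 709.2 in BDL_Vehicle, and 1011.9 and 836.3 in Sham_Vehicle. Its BDL_GW4064 arrays were below the other 4, with a log2 difference from BDL_Vehicle of -0.30 ± 0.16 (SE; limma adjusted p = 0.762). Marveld2, which encodes tricellulin of the corners where several cells meet, read 198.5 and 208.4 in BDL_GW4064, 313.5 and 213.4 in BDL_Vehicle, and 278.1 and 339.9 in Sham_Vehicle. BDL_Vehicle replicate 2 lay close to the BDL_GW4064 arrays and BDL_Vehicle replicate 1 among the Sham_Vehicle arrays. Ocln and Marveld2 are neighbours in the genome, with no protein-coding gene between them in RefSeq. F11r, the junctional adhesion molecule JAM-A, stayed between 1125 and 1220 on all 6 arrays, and its log2 difference between BDL_GW4064 and BDL_Vehicle had a 95% interval of -0.27 to 0.24.

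Of the 8 claudins with a probe set, 6 passed the filter. Cldn7, which lies largely on the basolateral side of gut epithelial cells, read 4077.5 and 3806.8 in BDL_GW4064, 3797.1 and 4078.6 in BDL_Vehicle, and 3960.4 and 3761.8 in Sham_Vehicle. The groups overlapped throughout, and the 95% interval of the log2 difference between BDL_GW4064 and BDL_Vehicle was -0.22 to 0.22. Cldn3, a barrier-forming claudin, read 2912.5 and 2305.2 in BDL_GW4064, 2376.9 and 2685.3 in BDL_Vehicle, and 2491.1 and 2037.4 in Sham_Vehicle, again with overlap. Its other probe sets included 1426332_a_at, which read 1696.8 and 1483.6 in BDL_GW4064 and 1369.3 and 1653.7 in BDL_Vehicle. That probe set was lowest in Sham_Vehicle without overlap, at 1280.3 and 921.2.

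Cldn15, which forms sodium-permeable channels in the small intestine, read 1404.9 and 1080.6 in BDL_GW4064, 1511.3 and 1616.0 in BDL_Vehicle, and 1323.2 and 1445.2 in Sham_Vehicle. BDL_Vehicle held the 2 highest values. The log2 difference between BDL_GW4064 and BDL_Vehicle was -0.34 ± 0.15 (SE; limma adjusted p = 0.668), and between BDL_GW4064 and Sham_Vehicle the arrays overlapped.

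Cldn2 and Cldn4 differed widely between arrays of 1 group. Cldn2, a cation- and water-permeable claudin of the crypts, read 481.5 and 725.9 in BDL_GW4064, 823.6 and 593.4 in BDL_Vehicle, and 795.2 and 424.4 in Sham_Vehicle. Cldn4, a claudin of tighter epithelia, read 391.4 and 132.4 in BDL_GW4064, 197.6 and 302.2 in BDL_Vehicle, and 386.4 and 170.5 in Sham_Vehicle. In each group the higher Cldn4 array was 1.53 to 2.96 times the lower one, and the groups overlapped fully. The 95% interval of its log2 difference between BDL_GW4064 and BDL_Vehicle was -1.33 to 1.14. With 2 arrays per group, Cldn4 changes of more than 2-fold in either direction were therefore not excluded. Cldn3 and Cldn4 are neighbours in the genome with no protein-coding gene between them in RefSeq. In each group the array with the higher Cldn4 signal also had the higher Cldn3 signal. This order was not particular to the neighbours. It also held for Epcam, Cldn7, F11r, Ctnnb1, Jup, Pof1b and Pkp3, and for the median of the intestinal epithelium markers.

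Cldn8 and Cldn1 did not pass the filter and were not tested. Cldn8, a claudin known from the distal colon and the kidney tubule, read 39.1 and 39.1 in BDL_GW4064, 24.0 and 14.2 in BDL_Vehicle, and 78.7 and 42.2 in Sham_Vehicle. The groups did not overlap, but BDL_Vehicle lay below the floor of 37.1, and of the other 4 arrays only Sham_Vehicle replicate 1 stood well above it. All 4 Cldn1 probe sets were below the floor on every array, with at most 10.7.

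Tight junction plaque and polarity genes held Pof1b and Tjap1, described above, and 4 other members with small differences. Tjp1, the scaffold ZO-1, read 627.5 and 586.2 in BDL_GW4064, 693.8 and 685.1 in BDL_Vehicle, and 745.4 and 831.0 in Sham_Vehicle. The 3 groups did not overlap, with BDL_GW4064 lowest and Sham_Vehicle highest, and the log2 difference between BDL_GW4064 and BDL_Vehicle was -0.18 ± 0.13 (SE; limma adjusted p = 0.835). Tjp3, the scaffold ZO-3, read 762.2 and 708.8 in BDL_GW4064, 793.4 and 783.2 in BDL_Vehicle, and 668.4 and 692.4 in Sham_Vehicle. It too had no overlap, in another order, with BDL_Vehicle highest and Sham_Vehicle lowest. The polarity genes Pard3, which read 110.7 to 133.6 over all arrays, and Mpp5, which read 290.9 to 355.4, had log2 differences between BDL_GW4064 and BDL_Vehicle of -0.15 ± 0.17 and -0.05 ± 0.16 (SE).

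Adherens junction genes split into steady members and members that varied together. Epcam, an adhesion molecule of epithelial cells, read 5177.0 and 4311.5 in BDL_GW4064, 4867.4 and 4930.8 in BDL_Vehicle, and 5043.3 and 4868.9 in Sham_Vehicle. Cdh17, the intestinal LI-cadherin, stayed between 3232 and 3841, Ctnnb1, beta-catenin, between 3085 and 3785, and Ctnna1, alpha-catenin, between 2134 and 2340. The 95% intervals of their log2 differences between BDL_GW4064 and BDL_Vehicle lay between -0.32 and 0.32.

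Cdh1, which encodes E-cadherin, read 1493.3 and 1484.6 in BDL_GW4064, 2166.2 and 1537.9 in BDL_Vehicle, and 1991.7 and 2350.9 in Sham_Vehicle. BDL_Vehicle replicate 2 was near the BDL_GW4064 arrays, and BDL_Vehicle replicate 1 was within the Sham_Vehicle range. Ctnnd1, the p120 catenin that holds E-cadherin at the membrane, showed the same order, with 462.2 and 414.8 in BDL_GW4064, 613.6 and 463.9 in BDL_Vehicle, and 532.0 and 739.9 in Sham_Vehicle. Between BDL_GW4064 and BDL_Vehicle the log2 differences were -0.29 ± 0.17 for Cdh1 and -0.28 ± 0.20 for Ctnnd1 (SE), and neither gene was at an unadjusted p under 0.05.

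Desmosome genes had small differences. Dsp, desmoplakin, read 1591.2 and 1347.8 in BDL_GW4064, 1942.0 and 1668.4 in BDL_Vehicle, and 2055.8 and 1947.1 in Sham_Vehicle. Its log2 difference between BDL_GW4064 and BDL_Vehicle was -0.30 ± 0.13 (SE; limma adjusted p = 0.677), with no overlap. Jup, plakoglobin, read 704.8 and 655.1 in BDL_GW4064, 771.3 and 825.2 in BDL_Vehicle, and 849.0 and 786.5 in Sham_Vehicle, a log2 difference from BDL_Vehicle of -0.23 ± 0.12 (SE; limma adjusted p = 0.773). The desmosomal cadherin gene Dsg2 read 1610.2 and 1505.3 in BDL_GW4064, 1871.5 and 1759.2 in BDL_Vehicle, and 1764.3 and 1789.8 in Sham_Vehicle, a log2 difference from BDL_Vehicle of -0.22 ± 0.11 (SE; limma adjusted p = 0.723). BDL_GW4064 arrays were the lowest in all 3 genes. The desmosomal cadherin gene Dsc2 read 722.6 to 950.6 and the plakophilin genes Pkp2 and Pkp3 read 388.2 to 440.0 and 443.6 to 620.8 over all arrays. Pkp3 reached its highest signal in BDL_Vehicle replicate 2.

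By the probe sets that stood for them, the gap junction genes overlapped in every comparison. Gjb1, which encodes a connexin, read 242.7 and 212.4 in BDL_GW4064, 230.1 and 222.5 in BDL_Vehicle, and 227.4 and 237.8 in Sham_Vehicle. Its other probe set, 1448766_at, read 169.0 and 172.0 in BDL_GW4064, below 220.0 and 185.9 in BDL_Vehicle and 208.5 and 180.6 in Sham_Vehicle. The connexin gene Gjb2 read 118.4 to 131.3 on 5 arrays and 171.3 in BDL_Vehicle replicate 1.

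**Figure D3:**
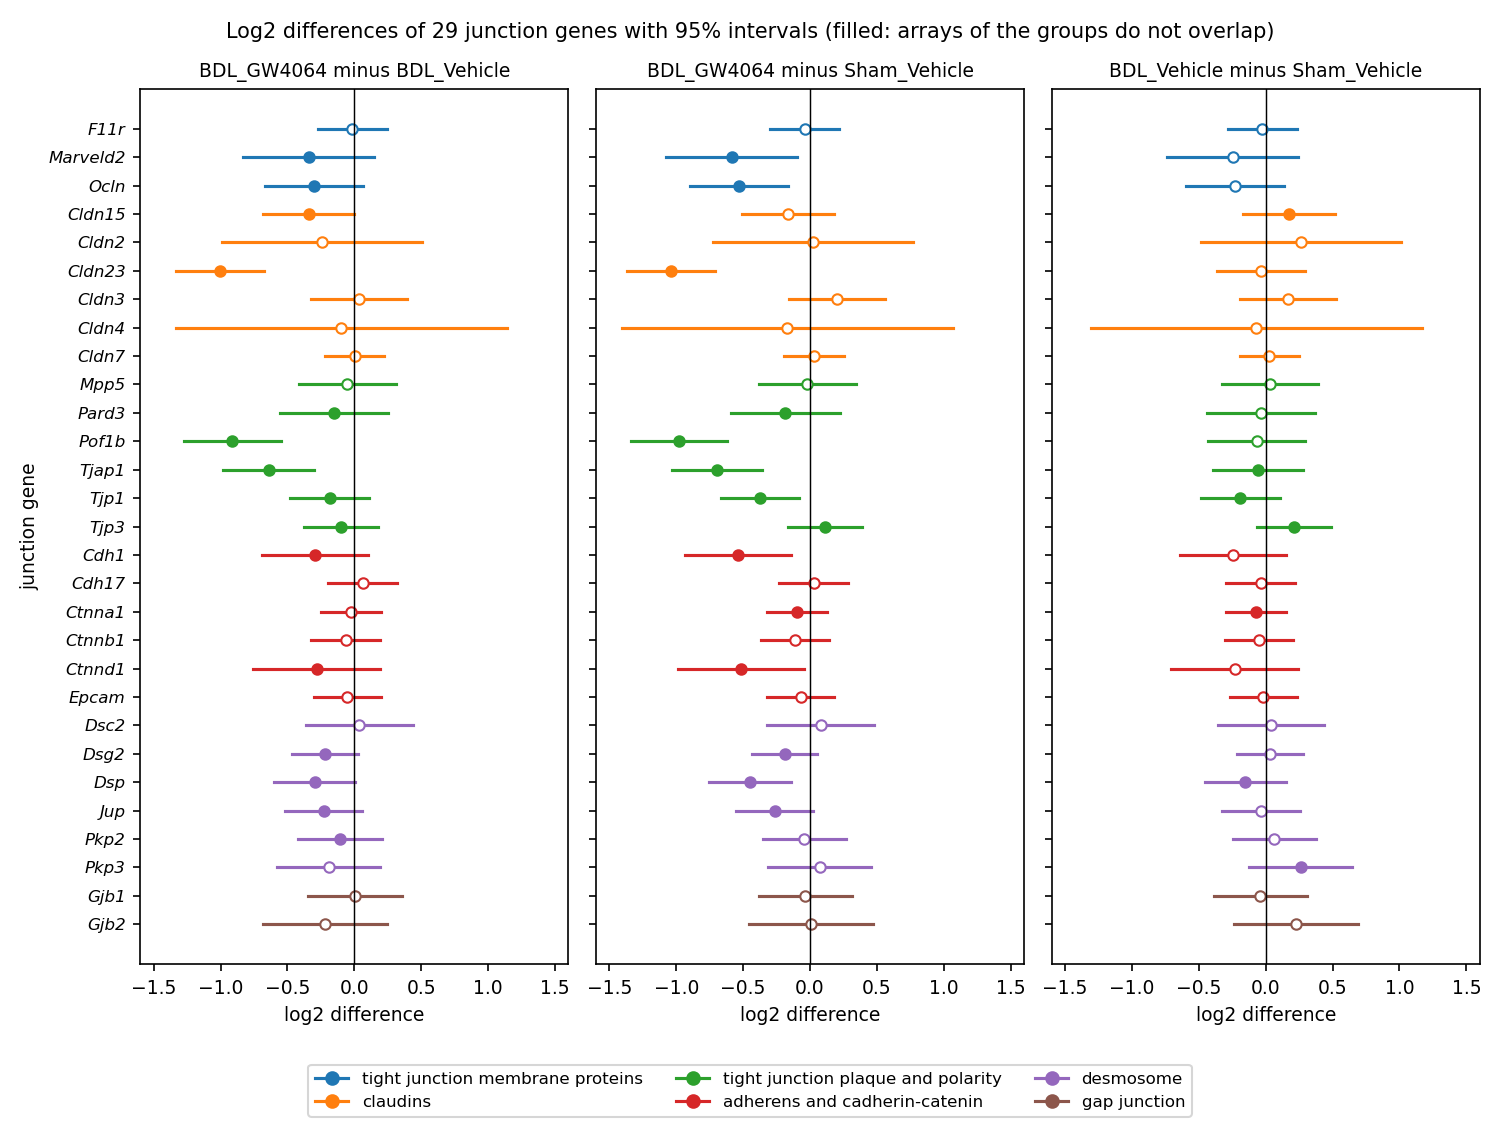
Log2 differences (x axis, moderated 95% intervals as lines) of 29 junction genes (y axis, coloured by class) for BDL_GW4064 minus BDL_Vehicle, BDL_GW4064 minus Sham_Vehicle and BDL_Vehicle minus Sham_Vehicle, with filled points where the arrays of the groups do not overlap. Intervals exclude 0 for 3, 9 and 0 genes in that order, before adjustment for multiple tests.

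The comparison of BDL_Vehicle with Sham_Vehicle asks what the ligation did. By the probe sets that stood for them, junction genes differed little. Of 13575 probe sets, 0.0295% passed the threshold, and 0 of 29 junction genes did. In limma, 0 junction genes were at an unadjusted p under 0.05 by those probe sets, where 6.01% of 7919 genes were. Other probe sets at that p were all higher without overlap, each with a limma adjusted p of 0.751. They were Cldn3 1426332_a_at (log2 difference 0.47), Ctnnb1 1430533_a_at (0.55), and Dsg2 1460380_at (0.43) and 1426153_a_at (1.21). Lower means were found for 18 of 29, against 52.1% of all genes. The arrays did not overlap for 4 junction genes with lower and 3 with higher values, against 19.7% and 18.1% of all genes. The median log2 difference was -0.03 over junction genes and -0.01 over all genes, and the differences ran from -0.25 (Marveld2) to 0.27 (Cldn2). For 19 of 29 genes the 95% interval lay within 0.5 of 0 on the log2 scale.

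The members with no overlap after ligation were Tjp3 (log2 difference 0.21 ± 0.12, SE; limma adjusted p = 0.755), Pkp3 (0.26 ± 0.17; limma adjusted p = 0.787) and Cldn15 (0.18 ± 0.15; limma adjusted p = 0.833) with higher values. Lower values were those of Tjp1 (-0.19 ± 0.13; limma adjusted p = 0.799), Dsp (-0.15 ± 0.13; limma adjusted p = 0.836), Ctnna1 (-0.07 ± 0.10; limma adjusted p = 0.899) and Tjap1 (-0.05 ± 0.15; limma adjusted p = 0.952). By class, the median log2 difference was -0.23 for the 3 tight junction membrane proteins, 0.10 for 6 claudins, -0.04 for 6 plaque and polarity genes, -0.06 for 6 adherens genes, 0.04 for 6 desmosome genes and 0.09 for the 2 gap junction genes.

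The comparison of BDL_GW4064 with Sham_Vehicle shares its arrays with both others, so its values add no independent evidence. Of 13575 probe sets, 0.0368% passed the threshold, and 0 of 29 junction genes did. At an unadjusted p under 0.05 there were 9 junction genes by the probe sets that stood for them, all lower. Of all genes, 7.08% were lower at that p. Other probe sets at that p went both ways. Cldn3 1426332_a_at (0.55), Ctnnb1 1430533_a_at (0.75), and Dsg2 1460380_at (0.44) and 1426153_a_at (1.35) were higher. Dsc2 1426911_at (-0.78), Dsg2 1439476_at (-0.42) and Dsp 1435493_at (-1.08) were lower (log2 differences). Lower means were found for 21 of 29, against 48.2% of all genes. The arrays did not overlap for 13 junction genes with lower values and 1 with higher values, against 24.0% and 25.0% of all genes, and the gene with higher values was Tjp3.

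The log2 differences between BDL_GW4064 and Sham_Vehicle were -1.04 ± 0.14 for Cldn23 (SE; limma adjusted p = 0.103), -0.98 ± 0.16 for Pof1b (limma adjusted p = 0.141) and -0.70 ± 0.15 for Tjap1 (limma adjusted p = 0.176). These were close to the differences from BDL_Vehicle for the same 3 genes. The other 6 genes at an unadjusted p under 0.05 were Dsp (-0.45 ± 0.13; limma adjusted p = 0.203), Ocln (-0.53 ± 0.16; limma adjusted p = 0.208), Cdh1 (-0.54 ± 0.17; limma adjusted p = 0.227), Tjp1 (-0.37 ± 0.13; limma adjusted p = 0.24), Marveld2 (-0.59 ± 0.21; limma adjusted p = 0.259) and Ctnnd1 (-0.52 ± 0.20; limma adjusted p = 0.285). By class, the median was -0.53 for tight junction membrane proteins, -0.07 for claudins, -0.28 for plaque and polarity genes, -0.10 for adherens genes, -0.12 for desmosome genes and -0.01 for gap junction genes.

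Several of these genes followed the split on the 18S control probe set. All 3 arrays with low 18S signal read below all 3 with high 18S signal for 10 of 29 junction genes, against 13.9% of all genes, and above them for 0, against 11.7% of all genes. The 10 genes were Ocln, Marveld2, Cldn23, Tjp1, Pard3, Cdh1, Ctnna1, Ctnnd1, Dsp and Dsg2. These counts rest on the probe sets that stood for the genes, and other probe sets split both ways. Higher on all low-18S arrays were Dsg2 1425619_s_at, 1460380_at and 1426153_a_at, Ctnnb1 1430533_a_at, Cldn3 1426332_a_at and Mpp5 1434954_at. Lower on all of them were Dsg2 1439476_at and 1449741_at, Dsc2 1426911_at, Dsp 1435493_at and Ctnna1 1437807_x_at. Within BDL_Vehicle, replicate 2 minus replicate 1 was -0.55 for Marveld2, -0.49 for Cdh1, -0.40 for Ctnnd1 and -0.29 for Ocln on the log2 scale. Within the low-18S arrays, the mean of BDL_GW4064 minus BDL_Vehicle replicate 2 was -0.07 for Marveld2, -0.05 for Cdh1, -0.08 for Ctnnd1 and -0.16 for Ocln.

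Cldn23, Pof1b and Tjap1 kept most of their difference within those arrays, at -0.91, -0.98 and -0.64 (log2). With the 18S split as a term, the fit gave the same differences for BDL_GW4064 minus BDL_Vehicle, with limma adjusted p of 0.621 for Cldn23, 0.747 for Pof1b and 0.958 for Tjap1. These values rest on BDL_Vehicle replicate 2 alone as the vehicle array. In the comparison with Sham_Vehicle the same term left -0.05 ± 0.21 for Cdh1 and -0.04 ± 0.28 for Marveld2 (SE). It left -0.85 ± 0.23 for Cldn23, -1.11 ± 0.27 for Pof1b and -0.70 ± 0.26 for Tjap1 (SE). Both BDL_GW4064 arrays had low and both Sham_Vehicle arrays high 18S signal, so these values link the groups through single BDL_Vehicle arrays. Both BDL_GW4064 arrays lay below BDL_Vehicle replicate 2 for 18 of 29 junction genes, against 30.9% of all genes. What the 18S split stands for was not tested.

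**Figure D4:**
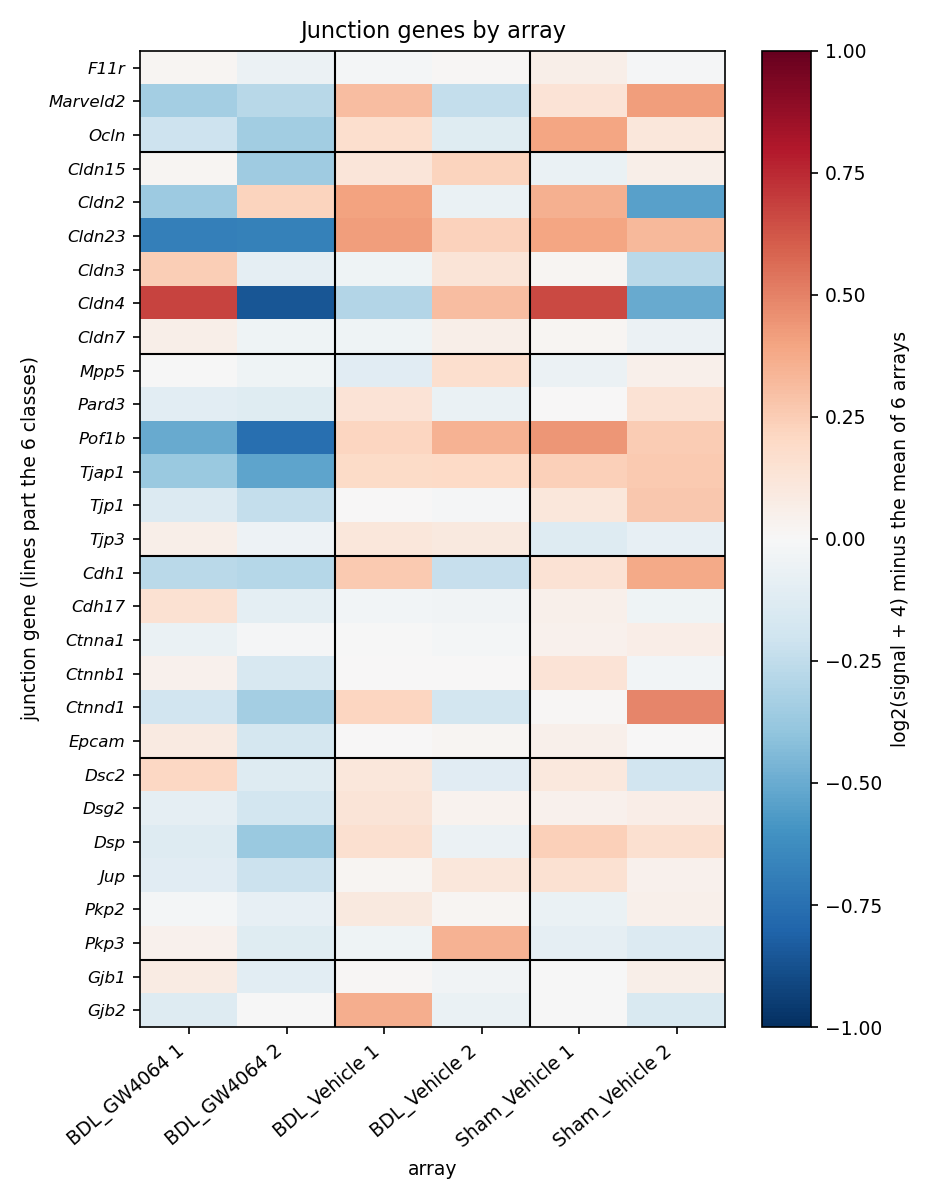
Log2(signal + 4) minus the mean of 6 arrays as colour, for 29 junction genes (rows, parted by class) on the 6 arrays (columns, parted by group). Cldn23, Pof1b and Tjap1 are blue on the BDL_GW4064 arrays alone, while Cdh1, Marveld2 and Ctnnd1 are blue on BDL_Vehicle replicate 2 as well.

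Probe sets of 1 gene did not always follow each other. Of the 11 junction genes with several probe sets past the filter, 5 had probe sets with opposite signs in each comparison, though not always the same 5. Ctnnb1, Dsc2 and Dsg2 had opposite signs in all 3 comparisons. Dsg2 had 6 probe sets past the filter. Probe set 1439476_at of Dsg2 read 1223.9 and 1279.6 in BDL_GW4064, 1707.5 and 1440.1 in BDL_Vehicle, and 1648.9 and 1705.2 in Sham_Vehicle, lowest in BDL_GW4064. Probe set 1426153_a_at of the same gene read 451.7 and 363.0 in BDL_GW4064, 302.3 and 447.5 in BDL_Vehicle, and 293.5 and 82.6 in Sham_Vehicle, and was lowest on Sham_Vehicle replicate 2, which also had the highest actin ratio. Against Sham_Vehicle, the BDL_GW4064 log2 differences of the Dsg2 probe sets ran from -0.42 to 1.35.

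Dsc2 had a second probe set, 1426911_at, that read 507.6 and 496.3 in BDL_GW4064, 876.7 and 564.6 in BDL_Vehicle, and 849.3 and 875.0 in Sham_Vehicle. It followed the 18S split, while the probe set that stood for the gene did not, and the log2 differences between BDL_GW4064 and BDL_Vehicle were -0.48 ± 0.20 and 0.04 ± 0.17 (SE). Dsp probe set 1435493_at read 564.5 and 779.5 in BDL_GW4064, 1319.6 and 573.7 in BDL_Vehicle, and 1242.1 and 1584.0 in Sham_Vehicle, with BDL_Vehicle replicate 2 again among the low arrays. Ctnnb1 probe set 1430533_a_at ran the other way, with 1376.8 and 1104.8 in BDL_GW4064, 904.7 and 1272.8 in BDL_Vehicle, and 888.2 and 605.2 in Sham_Vehicle. Cldn23, Pof1b and Tjap1 each had 1 probe set, so no second probe set could be compared.

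**Figure D5:**
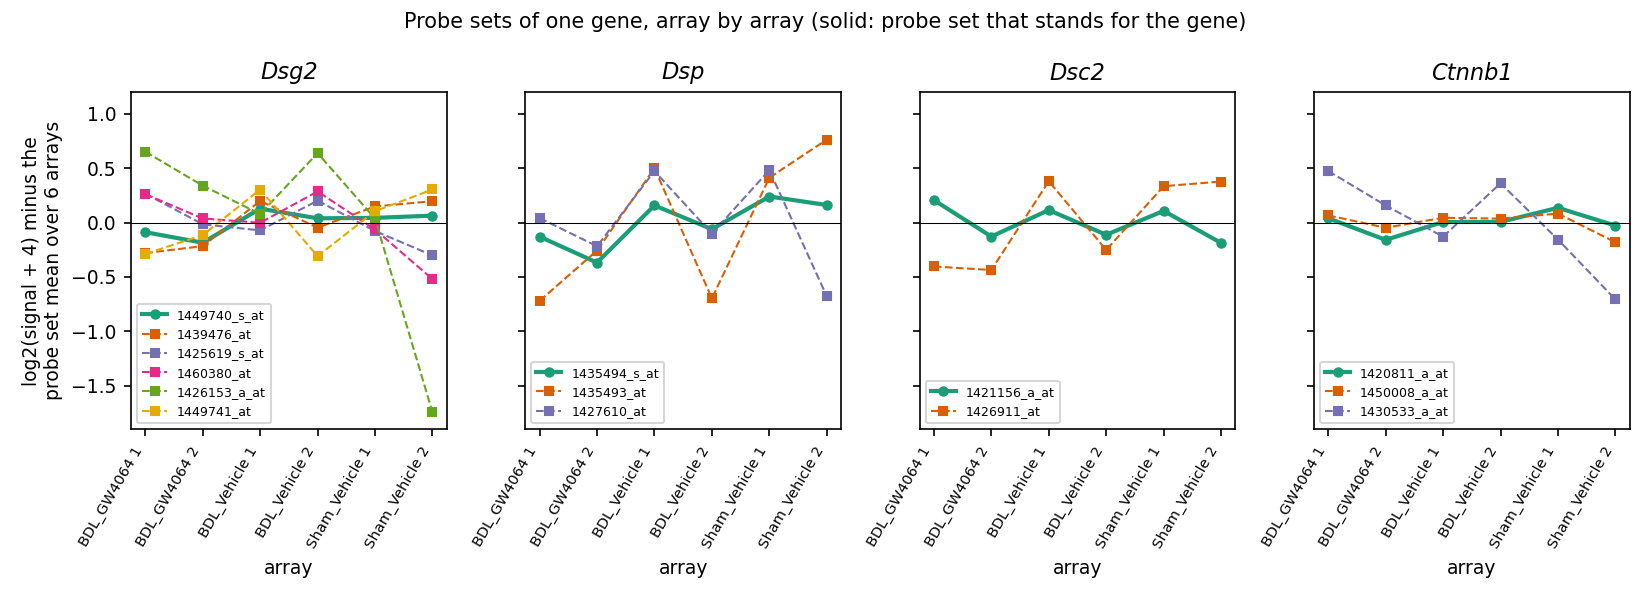
Log2(signal + 4) minus each probe set's own mean over 6 arrays (y axis) for all probe sets past the filter of Dsg2, Dsp, Dsc2 and Ctnnb1 on the 6 arrays (x axis), with a solid line for the probe set that stands for the gene. Probe sets of a gene part from each other on several arrays, among them Sham_Vehicle replicate 2, where Dsg2 probe set 1426153_a_at reads 82.6.

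Other genes of the same structures came from a list of 77 symbols, which held both the old and the new name of some genes. Of these symbols, 58 had a probe set and 30 passed the filter. In each of the 3 comparisons 0 of these 30 passed the threshold. With BDL_GW4064 against BDL_Vehicle, 2 were higher and 2 lower at an unadjusted p under 0.05, against 5.06% and 2.41% of all genes. With BDL_Vehicle against Sham_Vehicle, 0 were higher and 1 lower at that p, against 2.95% and 3.06% of all genes. With BDL_GW4064 against Sham_Vehicle, 1 was higher and 3 lower, against 7.15% and 7.08% of all genes. Their medians were -0.04, -0.02 and -0.02 in the same order, nearer to 0 than those of the 29 genes.

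Gja1, a connexin of smooth muscle and other mesenchymal cells, read 113.5 and 293.1 in BDL_GW4064, 59.3 and 68.4 in BDL_Vehicle, and 41.1 and 75.9 in Sham_Vehicle. Its highest value was on the array with the smooth muscle signal, and its log2 difference between BDL_GW4064 and BDL_Vehicle was 1.46 ± 0.44 (SE; limma adjusted p = 0.44). Its log2 difference between BDL_GW4064 and Sham_Vehicle was 1.64 ± 0.44 (SE; limma adjusted p = 0.198). Vcl, vinculin, which links adherens junctions and cell-matrix contacts to actin, read 831.2 and 872.8 in BDL_GW4064, 633.6 and 628.8 in BDL_Vehicle, and 738.5 and 837.1 in Sham_Vehicle. BDL_Vehicle was lowest without overlap, with log2 differences of 0.43 ± 0.13 for BDL_GW4064 minus BDL_Vehicle (SE; limma adjusted p = 0.426) and -0.32 ± 0.13 for BDL_Vehicle minus Sham_Vehicle (limma adjusted p = 0.751). Amot, angiomotin, a partner of the polarity complex, read 81.6 and 102.8 in BDL_GW4064, 139.2 and 121.6 in BDL_Vehicle, and 148.2 and 161.9 in Sham_Vehicle, and its log2 difference between BDL_GW4064 and BDL_Vehicle was -0.49 ± 0.19 (SE; limma adjusted p = 0.594). Against Sham_Vehicle it was -0.73 ± 0.19 (SE; limma adjusted p = 0.192). The adhesion molecule gene Nectin3 read 989.8 and 884.5 in BDL_GW4064, 1277.3 and 1098.3 in BDL_Vehicle, and 1262.9 and 1474.6 in Sham_Vehicle. Its log2 difference between BDL_GW4064 and Sham_Vehicle was -0.54 ± 0.14 (SE; limma adjusted p = 0.19).

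After ligation alone, Marveld3, a relative of tricellulin, read 145.2 and 168.9 in BDL_Vehicle, against 121.3 and 112.2 in Sham_Vehicle, a log2 difference of 0.41 ± 0.18 (SE; limma adjusted p = 0.751). Amotl2, a relative of angiomotin, read 89.1 and 77.7 in BDL_Vehicle, against 106.2 and 115.5 in Sham_Vehicle, a log2 difference of -0.40 ± 0.18 (SE; limma adjusted p = 0.751).

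Replicate arrays of the junction genes were mostly close. The higher array was at most 1.2 times the lower one for 23 of 29 genes in BDL_GW4064, 20 in BDL_Vehicle and 22 in Sham_Vehicle, and for 16 genes in every group. Cldn4 had the widest gap in each group.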

How the data were processed

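The authors deposited probe-set intensity values, made with MAS5 according to the submitters' processing notes, for 22690 probe sets on 6 arrays, on a linear scale with a trimmed mean of 200.1 on every array. Version and settings are not given in the sources used here. Gene symbols came from the platform annotation. The 31 genes with a probe set matched RefSeq (GRCm38.p6) by identifier. Probe sets annotated to several genes were not named.

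Signals were analysed as log2(signal + 4), which understates changes of low genes. The 64 control probe sets and the lowest 40% by mean log2 value were left out, leaving 13575 probe sets. Differences were tested with limma (3.58.1, R 4.3.3) over all 6 arrays, with 1 mean per group, a signal trend in the variance prior and Benjamini-Hochberg adjustment per comparison over all probe sets tested, at 0.05. The fit was tested on simulated data. Intervals are 95% moderated intervals. Depth is not defined for arrays, and 2 per group limit the precision.

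Members and lists were chosen with earlier results of these data known, so no list was tested. Counts are given beside all 7919 genes. Fold changes were given for members with no overlap between arrays, those at an unadjusted p under 0.05 first, up to 12 per comparison or 8 by smallest p, and for up to 3 other junction genes. Members outside this rule that are given with a difference (Cdh1, Ctnnd1, Tjp1, Pard3, Mpp5 and Dsc2 against BDL_Vehicle) were added after their values were seen. Replicate numbers did not pair the arrays (correlations of deviations from the group means -0.12, 0.09 and 0.04). Alternatives covered scaling, pseudocount, filter, prior, array weights, arrays in the fit, a replicate block, the 18S split and each array left out.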

Additional observations from a re-analysis of the deposited data

How the results depend on the processing

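In all 19 alternative fits per comparison, 0 of the 29 junction genes passed the threshold. Every gene chosen by the rule for fold changes kept the sign of its difference, in the comparison it was chosen for, wherever it was tested. Signs of the members added outside that rule were not checked. In BDL_GW4064 against BDL_Vehicle the adjusted p ran over these fits from 0.0738 to 0.638 for Cldn23, from 0.142 to 0.747 for Pof1b and from 0.257 to 0.958 for Tjap1. The median log2 difference of the junction genes in that comparison was -0.25 with each array centred on its median, where that of all genes was -0.06, and -0.068 with the 18S split as a term, where that of all genes was 0.00. Probe sets past the threshold in that comparison, 7 as reported, numbered 4 without a filter on low signal, 2 without a signal trend, 12 with a robust prior and 2 with the 18S split. For BDL_Vehicle against Sham_Vehicle, 4 as reported, they numbered 2 without a filter and 1 without a trend. For BDL_GW4064 against Sham_Vehicle, 5 as reported, they numbered 3 with median centring, 0 without a trend and 0 with the 18S split. With the replicate number as a block, 4, 2 and 0 probe sets passed in the same order of comparisons, though the numbers are not stated to pair the arrays. Leaving out 1 array at a time gave 2 to 48, 1 to 6 and 0 to 29 probe sets, with 48 and 29 reached without BDL_GW4064 replicate 1, and junction medians of -0.18 to -0.068, -0.06 to 0.01 and -0.20 to -0.052. The median of -0.068 was that without BDL_Vehicle replicate 1, and -0.052 that without BDL_GW4064 replicate 2. Counts of junction genes without overlap, added after seeing the data, were 18 to 24 lower (30.0% to 35.8% of all genes) and 0 to 8 higher (33.5% to 36.9%) for BDL_GW4064 against BDL_Vehicle. They were 9 to 12 lower (33.6% to 38.8%) and 4 to 11 higher (31.0% to 35.0%) of 29 for BDL_Vehicle against Sham_Vehicle, close to the background for the lower ones, and 13 to 21 lower (35.4% to 37.3%) and 1 to 9 higher (36.6% to 40.2%) for BDL_GW4064 against Sham_Vehicle. A single array in a group overlaps less readily by construction; other causes of these shifts were not tested. Junction genes at an unadjusted p under 0.05 numbered 3 to 7 (4.8% to 9.76% of all genes), 0 to 3 (3.52% to 8.54%) and 3 to 9 (8.33% to 14.8%) with 1 array left out. They were 7 without BDL_Vehicle replicate 2 (9.76% of all genes), 3 after ligation without BDL_Vehicle replicate 1 (8.54%), and against Sham_Vehicle 3 without BDL_GW4064 replicate 2 (9.79%) and 5 without Sham_Vehicle replicate 2 (8.33%). With 2 arrays per group, differences smaller than the intervals given could not be detected.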
